A study of Mus musculus with 6 samples.

Results

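The genes that carry out regulated exocytosis were followed in whole pancreas of mouse embryos at e16.5. They were chosen by symbol, with earlier results of these data known: synaptotagmins (Syt), synaptotagmin-like proteins (Sytl), syntaxins (Stx), syntaxin-binding proteins (Stxbp), the SNAP and VAMP families, Rab3 and Rab27, complexins (Cplx), Rims2 and Unc13a. This gave 69 of the 54735 gene symbols in the count tables. The 3 control embryos had the genotype Neurog3:cre and the 3 RARdn embryos the genotype Neurog3:cre;RARdnfl/fl, all on a mixed C57Bl6/129SV background, so the cre driver was present in both groups. Neurog3 is the transcription factor of endocrine progenitors, and its driver acts in the endocrine lineage, while the RNA came from the whole organ. The name RARdn commonly stands for a retinoic acid receptor made dominant-negative; the labels leave it unexplained, and the allele could not be checked in counts per gene.

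Regulated secretion releases stored vesicles when calcium rises. A vesicle SNARE of the VAMP family zippers with a syntaxin and a SNAP protein of the target membrane. Munc18 and Munc13 proteins (Stxbp and Unc13 genes) assemble and prime the complex, and complexins bind it. Some synaptotagmins sense calcium, and Rab3 and Rab27 with their effectors bring granules to the membrane. In the pancreas this machinery serves both the hormone granules of islet cells and the zymogen granules of acinar cells, with partly different isoforms, and neurons of the organ use it for transmitter release.

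The libraries held 35256531 to 52015498 counts in genes. RARdn 1 stood apart in its composition. Its 16 acinar markers summed to 50578 CPM (counts scaled to library size), where the controls had 153494 to 168057, RARdn 2 had 184484 and RARdn 3 had 267162. Its 14 neuron markers summed to 355 CPM, where the controls had 84.1 to 127, RARdn 2 had 136 and RARdn 3 had 106. The 6 liver markers summed to 19.7 to 25.6 CPM in controls and to 1220, 277 and 27.6 CPM in RARdn 1, 2 and 3. The 16 endocrine markers summed to 1184 to 1288 CPM in controls and to 1448 to 1751 CPM in RARdn libraries, and the 8 mesenchyme markers to 4628 to 6349 and 7833 to 8851 CPM, both without overlap. The smooth muscle markers (83.8 to 122 and 146 to 288 CPM) and immune markers (99.5 to 144 and 156 to 212 CPM) were also higher in every RARdn library. None of these markers was at 0 in all libraries, and edgeR called none of the endocrine, acinar and neuron markers, but 2 of 6 liver, 1 of 8 mesenchyme, 2 of 5 smooth muscle and 1 of 6 immune markers higher. In such bulk samples fewer cells of a type and less RNA per cell cannot be told apart.

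No member passed the test between RARdn and control pancreas. Of 69 members, 64 had enough counts to be tested, and 0 were called higher and 0 lower by edgeR's quasi-likelihood test at an adjusted p under 0.05, where 1.37% of all 19070 genes tested were called higher and 2.65% lower. At an unadjusted p under 0.05, 8 members lay higher (12.5% of those tested) and 3 lower (4.69%), beside 12% and 10.2% of all genes. The groups did not overlap for 8 members with RARdn above (12.5%) and 2 with RARdn below (3.12%), beside 13.9% and 13.7% of all genes. These shares were close to or below the background. The median log2 fold change of RARdn over control was 0.08 over the tested members and 0.00051 over all genes, and 38 members lay above 0 and 26 below. limma-voom also called 0, where it called 1.42% and 2.75% of all genes. DESeq2 called 4 higher (Rab3b, Stx1a and Syt1 among them) and 0 lower of 66 members, where it called 4.17% and 5.17% of all genes. Without a filter on low counts, edgeR called the same number higher, 4, and 0 lower of 69 members, beside 3.31% and 3.61% of all genes.

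For 52 of the 64 tested members (81.2%, beside 65.8% of all genes) the 95% interval of the fold change lay within a 2-fold change in either direction, and for 26 it lay within 1.5-fold. All 8 internal syntaxins, all 7 tested VAMPs and all 7 syntaxin-binding genes were inside the 2-fold bounds. The 12 whose intervals reached past them were mostly of low level, such as Cplx1, Syt4, Sytl3 and Stx19, but also included Rab3d, the most abundant member. In all 17 members, Stx18, Unc13a, Rab3b, Stx4a, Syt7 and Syt4 among them, share exon bases with another annotated gene, and reads there could not be told apart because the strand setting of the counting is not given in the sources used here.

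**Figure D1:**
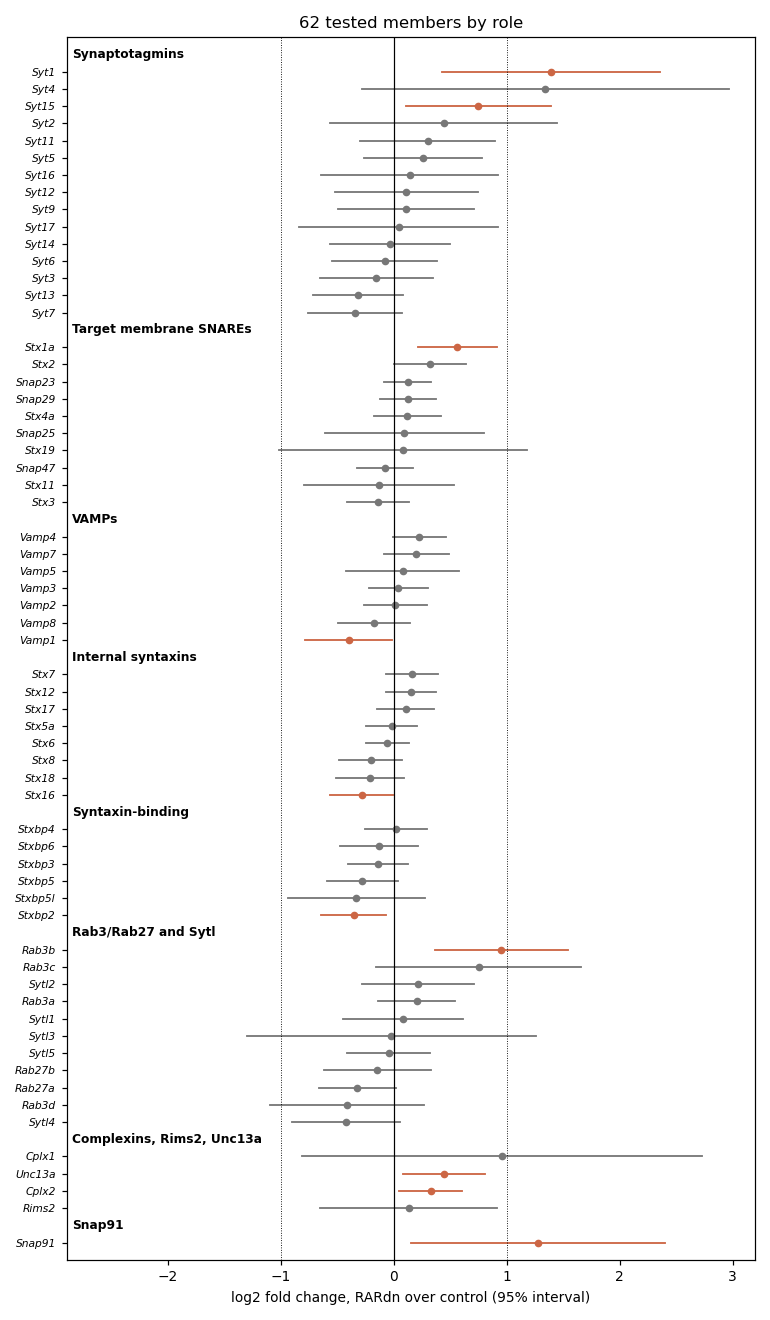
log2 fold changes of RARdn over control for 62 of the 64 tested members with 95% intervals, grouped by role (rows are genes, dotted lines mark a 2-fold change). The 10 members in orange had an unadjusted edgeR p under 0.05, and none passed after adjustment over all genes. Most points lie between the dotted lines.

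The 2 members whose call stood closest to the threshold were Rab3b and Stx1a. Rab3b (chromosome 4, 108879063 to 108943324, GRCm38), a small GTPase of secretory vesicles, was at 3.16, 2.003 and 2.36 CPM in the controls, in the order of their replicate numbers as in all values that follow, and at 6.18, 4.30 and 3.98 CPM in RARdn 1, 2 and 3. The means were 2.51 ± 0.590 CPM in controls and 4.82 ± 1.19 CPM in RARdn (SD, n = 3 each). Every RARdn library lay above every control, by 1.93-fold in the fit (log2 0.95, SE 0.26, edgeR adjusted p = 0.0801). Stx1a (chromosome 5, 135023482 to 135051100), the plasma membrane syntaxin of neurons and endocrine cells, was at 10.4, 9.97 and 9.09 CPM in controls and at 15.9, 15.8 and 11.7 CPM in RARdn libraries. The groups again did not overlap (log2 0.56, SE 0.15, edgeR adjusted p = 0.0801), with RARdn 3 nearest to the controls. Without RARdn 1, the log2 fold changes of Rab3b and Stx1a were 0.75 and 0.52 (edgeR adjusted p = 0.116 and 0.0972). Rab3b shares 317 exon bases with 8030443G20Rik on the other strand.

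The 250 bases before the annotated start are shown for Rab3b, Stx1a and Syt1, which DESeq2 called higher, and for Rab3d, the most abundant member, to set promoters of neuronal and endocrine isoforms beside that of a zymogen granule isoform. They are from RefSeq on GRCm38.p6, written 5′ to 3′ along the gene's strand: Rab3b (chr4:108878820-108879069, plus strand), Stx1a (chr5:135023232-135023481, plus strand), Syt1 (chr10:109010976-109011225, minus strand) and Rab3d (chr9:21918184-21918433, minus strand). Capitals mark any match, on either strand, to AGGTCA or AGTTCA (half-sites that retinoic acid receptors bind), CAGATG (an E-box), or GGACAG or TTCAGCACC (the parts of the element bound by the neuronal repressor REST).
Rab3b: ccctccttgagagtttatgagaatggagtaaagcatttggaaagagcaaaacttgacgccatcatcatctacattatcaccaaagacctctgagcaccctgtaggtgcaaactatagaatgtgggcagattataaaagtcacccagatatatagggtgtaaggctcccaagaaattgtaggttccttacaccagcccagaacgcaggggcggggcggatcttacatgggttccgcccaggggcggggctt
Stx1a: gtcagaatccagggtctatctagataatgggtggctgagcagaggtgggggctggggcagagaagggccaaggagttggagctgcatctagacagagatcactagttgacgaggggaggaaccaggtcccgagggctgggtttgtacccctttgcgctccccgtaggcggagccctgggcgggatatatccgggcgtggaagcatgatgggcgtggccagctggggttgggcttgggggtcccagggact
Syt1: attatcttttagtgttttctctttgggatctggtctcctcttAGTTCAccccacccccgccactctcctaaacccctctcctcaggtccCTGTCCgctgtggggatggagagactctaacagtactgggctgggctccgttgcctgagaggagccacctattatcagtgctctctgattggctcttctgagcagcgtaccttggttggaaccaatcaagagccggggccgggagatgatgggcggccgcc
Rab3d: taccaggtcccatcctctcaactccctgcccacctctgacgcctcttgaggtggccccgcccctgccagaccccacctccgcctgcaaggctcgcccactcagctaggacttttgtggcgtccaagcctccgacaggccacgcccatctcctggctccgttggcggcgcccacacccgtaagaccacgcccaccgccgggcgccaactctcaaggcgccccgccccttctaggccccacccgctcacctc
Syt1 held AGTTCA and, on the other strand, GGACAG, and the other 3 windows held none of the 5. Entries were found for 53 members. AGGTCA was in 17% of these and in 13.8% of the 27025 genes with an entry, AGTTCA in 3.77% and 11.9%, CAGATG in 9.43% and 14.5%, GGACAG in 20.8% and 18.7%, and TTCAGCACC in 0 members and 0.292% of all genes. The windows differed in CpG content: Rab3d held 18 CG dinucleotides, against 6 in Rab3b, 9 in Stx1a and 8 in Syt1, where the median was 15 over the members and 6 over all genes. A high count was not particular to Rab3d: the windows of Unc13a and Cplx2, not printed here, held 18 and 7. Unc13a also held GGACAG, and Cplx2 held none of the 5. A match is only a run of letters and does not show that a factor binds there.

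Levels between genes are compared here as CPM per kilobase of annotated exon. Rab3d was first, at a mean of 96.8 in controls and 72.6 in RARdn pancreas, followed by Vamp8 (39.1 and 34.6), Stxbp2 (35.3 and 27.6), Stx16 (30.1 and 24.7), Vamp2 (26.3 and 26.5) and Syt13 (23.99 and 19.3). Rab3d and Vamp8 are a Rab and a VAMP known from zymogen granules, and Stxbp2 is the Munc18 isoform of epithelia. In controls, Vamp8 and Stxbp2 overlapped over libraries, as did Vamp2 and Syt13, so their order is not firm, while Rab3d, Stxbp2, Stx16 and Vamp2 were in this order without overlap. In RARdn libraries each of the 5 below Rab3d overlapped the next. In controls 13 members lay above 10 CPM per kilobase and 41 above 1. Isoforms known from synapses spread from top to bottom in controls: Vamp2 was at 26.3, Rab3a at 8.53, Stx1a at 3.68, Snap25 at 0.771, Syt1 at 0.159 and Cplx1 at 0.142 CPM per kilobase. The 5 members not tested were Cplx3, Cplx4 and Syt10, each with at most 1 count in any library, Vamp9 with at most 7 and Syt8 with at most 21.

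**Figure D2:**
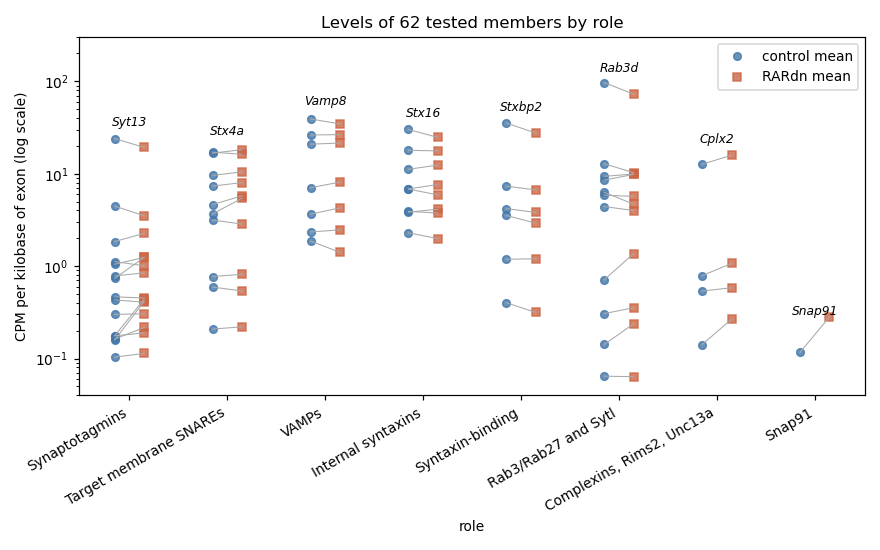
Mean level of 62 tested members in control (circles) and RARdn (squares) pancreas, in CPM per kilobase of exon on a log axis, by role, with a line joining the 2 means of a gene. The most abundant member of each role is named. Levels spread widely within the Rab group, from Sytl3 at 0.0644 to Rab3d at 96.8 in controls.

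Among 17 synaptotagmins, a family that includes calcium sensors, 15 were tested and 0 called, with 2 at an unadjusted p under 0.05. Syt1, the fast sensor of synaptic vesicles (chromosome 10, 108497650 to 109010982), was at 1.41, 1.51 and 1.06 CPM in controls and at 5.996, 2.35 and 2.04 CPM in RARdn 1, 2 and 3. All RARdn libraries lay above the controls, but RARdn 1, the library with the most neuron marker RNA, was far above the other 2 (log2 1.39, SE 0.42, edgeR adjusted p = 0.104). Without RARdn 1 the log2 fold change was 0.75. Whether neuron content had a part in this was not tested.

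Syt15 (chromosome 14, 34219595 to 34230420) was at 5.03, 2.89 and 3.49 CPM in controls and at 4.32, 7.59 and 7.30 CPM in RARdn libraries, so here RARdn 1 lay among the controls and RARdn 2 and 3 above them (log2 0.75, SE 0.28, edgeR adjusted p = 0.168). Without RARdn 1 it was at log2 0.998 (edgeR adjusted p = 0.0556). Syt13, an atypical synaptotagmin of endocrine cells and the most abundant of the family per kilobase, was at 91.6, 98.5 and 80.6 CPM in controls and at 94.2, 63.6 and 59.4 CPM in RARdn libraries. RARdn 1 lay within the control range and the other 2 lay below all of them (log2 -0.32, SE 0.18, edgeR adjusted p = 0.330).

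Syt7, a high-affinity calcium sensor of insulin granules, and Sytl4 (granuphilin), a Rab27 effector that docks them, had the same pattern; both were chosen after their values were seen. Syt7 was at 31.1, 37.7 and 31.4 CPM in controls and at 34.3, 23.3 and 20.98 CPM in RARdn libraries (log2 -0.35, edgeR adjusted p = 0.306), and Sytl4 at 33.1, 33.9 and 29.8 and at 33.4, 19.2 and 19.3 CPM (log2 -0.43, edgeR adjusted p = 0.273). Without RARdn 1, edgeR called Syt13, Syt7 and Sytl4 lower (log2 -0.52, -0.56 and -0.72, adjusted p = 0.0478, 0.0495 and 0.0211). Without RARdn 3 none of them was called (log2 -0.19, -0.21 and -0.29, edgeR adjusted p = 0.480, 0.449 and 0.390). Without RARdn 1 these were the 3 members called of 64, where 1.66% of all genes were called higher and 2.34% lower. The summed endocrine markers were higher in all 3 RARdn libraries than in any control. Single markers differed, as in 3 picked after their values were seen. Rfx6 was at 15.5, 15.6 and 12.8 CPM in controls and at 14.7, 8.95 and 6.74 CPM in RARdn libraries. Pax6 was at 42.6, 42.6 and 36.0 CPM and at 47.8, 34.9 and 28.0 CPM. Scg3 was at 59.8, 64.0 and 60.7 CPM and at 117, 86.0 and 79.3 CPM. The median log2 fold change of the 16 markers was 0.32. Whether endocrine content had a part was not tested.

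Syt4, the synaptotagmin of neurons and dense-core vesicles, Rab3c, a Rab of synaptic vesicles, and Cplx1, the main complexin of neurons, were highest in RARdn 1 as Syt1 was, and were also chosen after their values were seen. Syt4 was at 1.04, 0.490 and 0.532 CPM in controls and at 3.62, 1.12 and 0.362 CPM in RARdn libraries. Rab3c was at 1.49, 1.58 and 2.06 CPM and at 4.80, 1.71 and 2.07 CPM, and Cplx1 at 0.391, 0.401 and 0.139 CPM and at 1.33, 0.217 and 0.197 CPM. In each, RARdn 3 was at or near the control range. Not all synaptic forms were highest in RARdn 1. There Vamp1 was at 14.6 CPM, below all controls, and Rab3a at 17.7 CPM, within the control range. Without RARdn 1 the log2 fold changes moved from 1.34 to 0.18 for Syt4, from 0.75 to 0.17 for Rab3c and from 0.96 to -0.54 for Cplx1, none called in either fit (edgeR adjusted p from 0.309 to 0.886). Over all tested members, RARdn 1 was the highest of the 6 libraries for 21 (32.8%) and the lowest for 15 (23.4%), beside 22.3% and 19.4% of all genes.

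**Figure D3:**
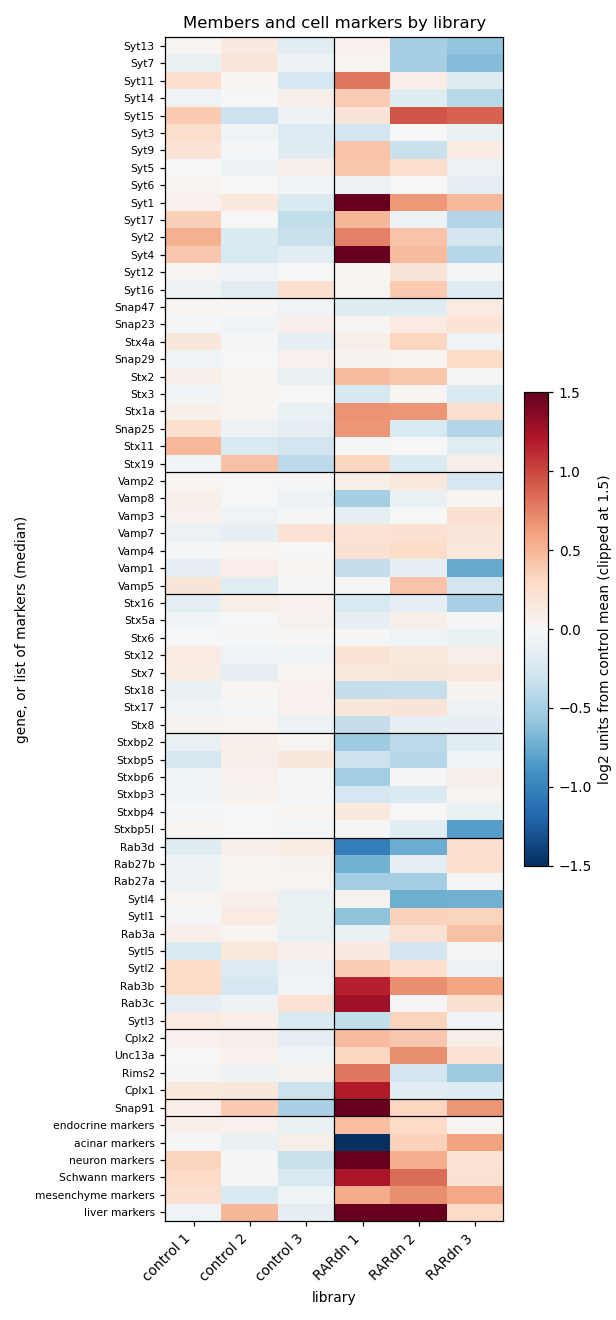
Level of 62 tested members in each library (columns) as log2(CPM + 0.5) minus the control mean, grouped by role and ordered by level, with the median over each list of cell type markers in the last rows. RARdn 1 differs most from the other libraries. There Syt1, Syt4, Rab3c, Cplx1 and Snap91 are high, as the neuron markers are, and Rab3d and Rab27b low, as the acinar markers are. These genes were picked after their values were seen. Other synaptic forms differ in RARdn 1, with Vamp1 below the controls and Rab3a within their range. In RARdn 2 Rab3d is low as well, while the acinar markers are above the controls.

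Target membrane SNAREs, the syntaxins and SNAP proteins on which vesicles dock, numbered 11, all tested, with 0 called and 8 above 0. Besides Stx1a, none had an unadjusted p under 0.05. Its partner Snap25 was at 6.21, 4.85 and 4.65 CPM in controls and at 8.54, 4.38 and 3.72 CPM in RARdn libraries, with RARdn 1 above and the other 2 below every control (log2 0.09, SE 0.31, edgeR adjusted p = 0.892, and log2 -0.34 without RARdn 1). The broadly expressed Snap23 was at 40.3, 40.1 and 43.3 CPM and at 42.3, 45.04 and 47.4 CPM, an overlap with a log2 fold change of 0.12 and a 95% interval from -0.08 to 0.33. Stx4a, the broadly expressed plasma membrane syntaxin, was the highest of the group per kilobase over all 6 libraries, though in controls Snap47 was above it (17.1 against 16.7 CPM per kilobase) with overlapping libraries. Stx4a was at 44.5, 38.7 and 35.4 CPM and at 41.9, 49.4 and 37.6 CPM (log2 0.12, interval -0.18 to 0.42).

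Of 8 VAMP genes, the SNAREs of the vesicle, 7 were tested and 0 called, and 6 had an interval within 1.5-fold. Vamp2, the synaptobrevin of synaptic and insulin vesicles, was at 102, 100.2 and 97.9 CPM in controls and at 106, 112 and 84.2 CPM in RARdn libraries, with a log2 fold change of 0.01 (interval -0.26 to 0.29). Vamp8, a VAMP of zymogen granules, was at 95.6, 90.3 and 85.5 CPM and at 63.7, 83.8 and 92.4 CPM, lowest in RARdn 1 (log2 -0.18, interval -0.50 to 0.14). Without RARdn 1, Vamp8 was at log2 -0.0090. Vamp1, another synaptobrevin, was the only one with an unadjusted p under 0.05, at 17.3, 20.3 and 19.4 CPM and at 14.6, 17.3 and 11.0 CPM (log2 -0.40, SE 0.17, edgeR adjusted p = 0.209), where RARdn 2 overlapped the controls.

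The 8 syntaxins of the endosome, Golgi, endoplasmic reticulum and autophagosome had the narrowest spread, from log2 -0.29 to 0.16, and each interval lay within 1.5-fold. Stx16, a syntaxin of the trans-Golgi network and the most abundant here, was at 107, 127 and 124 CPM in controls and at 101, 107 and 84.7 CPM in RARdn libraries, with the groups overlapping at control 1 and RARdn 2 (log2 -0.29, SE 0.12, edgeR adjusted p = 0.218). Of this group Stx7, a syntaxin of late endosomes, lay above and Stx8, its partner, below the controls in every RARdn library, as did Vamp4 of the VAMPs, above them, all with an unadjusted p over 0.05 and chosen after their values were seen.

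The syntaxin-binding genes encode proteins that hold and assemble syntaxins, and all 7 were tested with 0 called. Stxbp2 (chromosome 8, 3630955 to 3643644), the form of epithelia, was at 135, 155 and 150.5 CPM in controls and at 101, 111 and 132 CPM in RARdn libraries. All 3 RARdn libraries lay below the controls (log2 -0.36, SE 0.13, edgeR adjusted p = 0.149). Without RARdn 1, Stxbp2 was at log2 -0.24 (edgeR adjusted p = 0.326). RARdn 3, with the highest acinar marker sum, was nearest to the controls. RARdn 2, also with a sum above every control, lay further below them. Whether acinar content had a part in these values was not tested. Stxbp5l was at log2 -0.33 and Stxbp4 at 0.02, and both were chosen after their values were seen.

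The Rab3 and Rab27 GTPases and the Sytl effectors comprised 11 tested members with 0 called. Rab3d (chromosome 9, 21907491 to 21918192), a Rab of zymogen granules, was at 357, 426 and 435 CPM in controls and at 197, 241 and 477 CPM in RARdn 1, 2 and 3. The RARdn libraries thus lay on both sides of the controls (log2 -0.41, SE 0.30, edgeR adjusted p = 0.456), and without RARdn 3 Rab3d was called lower (log2 -0.89, edgeR adjusted p = 0.0156), while without RARdn 1 it was at log2 -0.14. The summed acinar markers were lowest in RARdn 1, as Rab3d was, and above the controls in RARdn 2, where Rab3d was also low. Single acinar markers differed, as in Bhlha15 and Cpb1, both chosen after their values were seen. Bhlha15 was at 429, 518 and 561 CPM in controls and at 280, 305 and 618 CPM in RARdn libraries. Cpb1 was at 5463, 3330 and 3824 CPM and at 1629, 10118 and 17760 CPM. The part of acinar content was not tested. Rab27a was at 46.9, 50.9 and 51.3 CPM and at 34.5, 34.7 and 50.2 CPM, again lowest in RARdn 1 and 2, and was chosen after its values were seen (log2 -0.32, edgeR adjusted p = 0.248). Rab3a, the synaptic and islet form, was at 19.9, 19.5 and 17.5 CPM and at 17.7, 22.0 and 25.9 CPM (log2 0.20, interval -0.14 to 0.54).

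Of 6 priming and clamping genes, 4 were tested and 0 called. All 4 lay above 0, where 50% of all genes did, but for Rims2 and Cplx1 this rested on RARdn 1. Cplx2, a complexin of endocrine cells and by far the most abundant of the group, was at 64.9, 66.0 and 56.1 CPM in controls and at 85.9, 82.2 and 66.4 CPM in RARdn libraries (log2 0.33, SE 0.12, edgeR adjusted p = 0.168). Unc13a (Munc13), which opens Stx1a for assembly, was at 9.94, 10.4 and 9.48 CPM and at 12.6, 16.4 and 11.5 CPM (log2 0.44, SE 0.16, edgeR adjusted p = 0.149). In both the groups did not overlap, though for Cplx2 RARdn 3 exceeded control 2 by less than 1 CPM, and scaled to the endocrine markers Cplx2 was at log2 -0.0082. Rims2, which ties Rab3 to the fusion site and was chosen after its values were seen, was at 5.66, 5.25 and 5.81 CPM and at 10.03, 4.49 and 3.65 CPM, high in RARdn 1 alone. Unc13a shares 495 exon bases with Colgalt1.

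Snap91, whose symbol fits the SNAP pattern but which encodes the clathrin adaptor AP180 of vesicle retrieval, was at 1.12, 1.49 and 0.578 CPM in controls and at 4.39, 1.40 and 1.91 CPM in RARdn libraries, highest in RARdn 1 (log2 1.28, SE 0.50, edgeR adjusted p = 0.175, and log2 0.66 without RARdn 1).

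**Figure D4:**
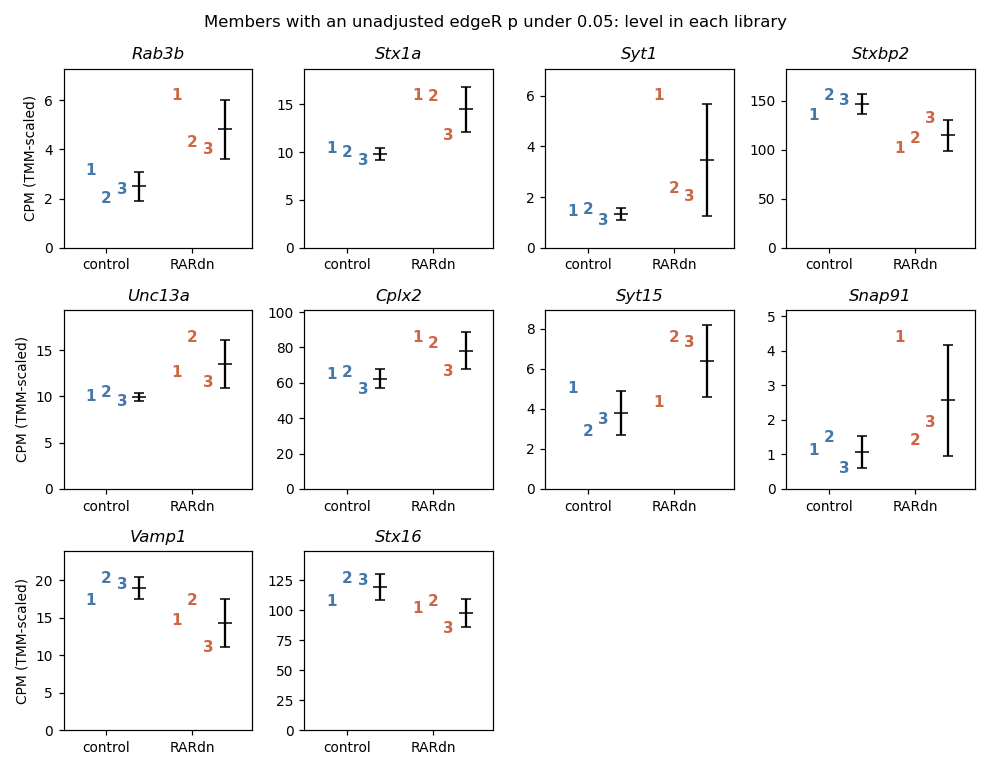
CPM after TMM scaling of 10 of the 11 members with an unadjusted edgeR p under 0.05. Numbers are the replicate of each library (blue control, orange RARdn), and bars give mean and SD over 3 libraries. Rab3b, Stx1a, Syt1, Unc13a and Cplx2 lay above the controls and Stxbp2 below them in every RARdn library, while Syt15, Snap91, Vamp1 and Stx16 overlapped.

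Among the libraries, the calls depended most on RARdn 3. It held the fewest counts in genes, 35256531, and the fewest genes detected, 23995 against 26437 to 28517 in the others. Without RARdn 3, edgeR called 7 of 65 members higher (Cplx2, Rab3b, Stx1a, Stx2, Syt1 and Unc13a among them) and 3 lower (Rab27a, Rab3d and Stxbp2). Of all genes, 6.98% and 7.84% were called, so the members' total of 15.4% was close to the 14.8% of all genes. Scaled to the summed endocrine markers, which moved the median of all genes to log2 -0.33 and that of the members to -0.25, edgeR called 0 higher and 6 lower (Stx16, Stxbp2, Syt13, Syt7, Sytl4 and Vamp1), beside 0.792% and 14% of all genes. Members above 0 went from 38 to 12 with that scaling, which lowers every gene by about the same amount.

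Ratios of isoforms within a library do not depend on scaling. Stx1a per Stx4a count was 0.233, 0.258 and 0.257 in controls and 0.379, 0.319 and 0.313 in RARdn libraries, without overlap (2-sided exact permutation p = 0.1, the smallest that 3 against 3 allows, adjusted over 4 ratios p = 0.4). Rab3a per Rab3d count was 0.0559, 0.0459 and 0.0401 and then 0.0901, 0.0913 and 0.0544, an overlap at RARdn 3 (exact permutation p = 0.2, adjusted p = 0.4). Vamp2 per Vamp8 count was 1.07, 1.11 and 1.15 and then 1.67, 1.33 and 0.912 (exact permutation p = 0.5, adjusted p = 0.667). Snap25 per Snap23 count was 0.154, 0.121 and 0.107 and then 0.202, 0.0972 and 0.0785 (exact permutation p = 1, adjusted p = 1). The first gene of each pair is a form known from neurons and endocrine cells. Only the syntaxin ratio separated the groups. With a smallest p of 0.1, no ratio could have passed 0.05, so the permutation test cannot decide whether a ratio changed.

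Beyond these families, 74 other genes of vesicle docking, priming and identity were listed, of which 73 were tested. edgeR called 0 higher and 2 lower, 2.74% beside the 2.65% of all genes. Pclo encodes piccolo, a scaffold of the presynaptic active zone that also acts in insulin release (chromosome 5, 14514918 to 14863459). It was at 68.3, 91.5 and 80.8 CPM in controls and at 28.5, 23.5 and 23.6 CPM in RARdn libraries, so that it fell to 0.315 of the control level (log2 -1.67, SE 0.14, edgeR adjusted p = 0.00138). Baiap3, a Munc13 relative that acts in dense-core vesicle traffic (chromosome 17, 25242659 to 25256364), fell from 56.6, 56.5 and 48.3 CPM to 24.8, 23.9 and 19.3 CPM (log2 -1.25, SE 0.12, edgeR adjusted p = 0.00378). The means were 80.2 ± 11.6 and 25.2 ± 2.85 CPM for Pclo and 53.8 ± 4.76 and 22.7 ± 2.90 CPM for Baiap3 (SD, n = 3 each). Both were low in RARdn 1 as in RARdn 2 and 3, without overlap between the groups.

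Pclo and Baiap3 were called lower in each of the 18 alternatives, with log2 fold changes from -2.01 to -1.57 and from -1.58 to -1.14 and adjusted p up to 0.0161 and 0.0389. Of the members named by the rule, none was called in more than 4 of the 18. Pclo shares 925 exon bases with Gm26918 and Gm26954 and Baiap3 140 with Tsr3, each on the other strand. The 2 most abundant genes of the list per kilobase were Syngr2, a vesicle protein outside neurons, at 161, 173 and 139 CPM and then 64.6, 69.6 and 130.2 CPM (log2 -0.84, edgeR adjusted p = 0.0986), and Napa, the SNAP that recruits NSF to spent SNARE complexes, at 154, 150.2 and 145 CPM and then 118, 135 and 152 CPM (log2 -0.15, edgeR adjusted p = 0.515). Over the 73 the median log2 fold change was -0.09, with 31 above 0 and 42 below.

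**Figure D5:**
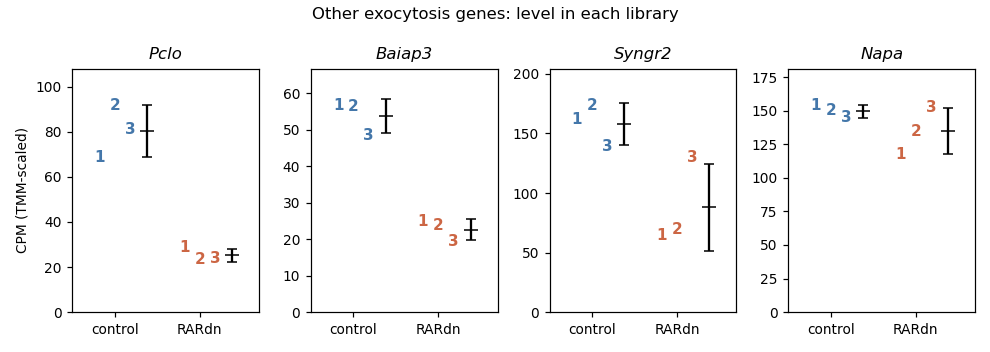
CPM after TMM scaling of Pclo, Baiap3, Syngr2 and Napa in each library, with numbers for the replicate and bars for mean and SD over 3 libraries. The RARdn libraries lie at 23.5 to 28.5 CPM for Pclo and 19.3 to 24.8 CPM for Baiap3, below all controls, while Syngr2 and Napa in RARdn 3 were near or within the control range.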

How the data were processed

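Total RNA of whole pancreas was sequenced from 6 embryos. The authors deposited raw read counts per gene symbol, 1 table per sample. The tools named in the submitters' processing notes are HISAT2, HTSeq, FastQC, cutadapt, bedtools and DESeq2, with mm10 and GRCm38 as builds. The sources used here give no versions, annotation or strand setting. The 5 summary lines of the deposited count tables (reads outside genes, ambiguous or not uniquely aligned) stayed out of library sizes; reads outside genes were 7.60% to 8.99% of all in controls and 2.90% to 5.30% in RARdn libraries.

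Genes were filtered with filterByExpr, scaled by TMM and tested with edgeR 4.0.16 (R 4.3.3) by the 2-sided quasi-likelihood test with genotype as the only term, and p-values were adjusted over 19070 genes by the Benjamini-Hochberg method. Levels are CPM after TMM scaling. SE was worked back from each log2 fold change and its F statistic, and intervals use the test's degrees of freedom. Exon lengths and positions are from GENCODE M21 (GRCm38), with all exons of a gene merged. Litters and batches are not in the labels, and p-values therefore cover only the spread among these 6 samples. Alternatives used DESeq2 1.42.0, limma-voom (limma 3.58.1), other scalings, filters and covariates, and leaving out each library.

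The members and lists were chosen with earlier results of these data known. Named were members with an unadjusted p under 0.05, the most abundant per kilobase of each role, the 8 genes of the ratios and, of the other exocytosis genes, those called and the 2 most abundant; others are said to be chosen after their values were seen. Some items are not reported here.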

Additional observations from a re-analysis of the deposited data

How the results depend on the processing

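Of 414 values of the 23 named genes under alternatives, 375 kept their direction and side of the threshold, 27 passed it only under the alternative and 12 changed sign. The count of members called higher, 0 in the test reported, was 4 with DESeq2, 4 without a filter on low counts and 0 to 7 when 1 library was left out. That of members called lower, also 0, was 6 with scaling to the pan-endocrine list and 0 to 3 when 1 library was left out. Of the other exocytosis genes, 2 were called higher with DESeq2, 2 without the filter and 0 to 2 when 1 library was left out. Called lower were 5 with DESeq2, 5 without the filter, 17 with scaling to the pan-endocrine list and 2 to 8 when 1 library was left out. Of all genes, 4.17% and 5.17% were called higher and lower with DESeq2 and 3.31% and 3.61% without the filter. The shares were 0.792% and 14% with scaling to the pan-endocrine list. When 1 library was left out they were 0.111% to 6.98% and 0.361% to 7.84%. What caused these counts to change was not tested. Fewer samples enter when a library is left out, and scaling to the pan-endocrine list moved the median of all genes down. Scaled to that list, the log2 fold changes changed sign for Cplx2 (-0.0082), Stx4a (-0.21), Snap25 (-0.28), Snap23 (-0.20), Vamp2 (-0.32) and Rab3a (-0.11). Vamp2, at log2 0.01 in the test reported, was also below 0 with limma-voom (-0.0083), at least 1 CPM in 3 libraries (-0.0020) and protein-coding genes only (-0.018), and ranged from -0.063 to 0.13 when 1 library was left out, as Snap25 did from -0.34 to 0.31. Xist was above 100 CPM in control 1 and 3 alone and in no RARdn library, so a term for it partly overlaps with genotype. With that term 0 members were called, and 0.0262% and 0.294% of all genes were called higher and lower. Such a fit cannot fully separate genotype from what Xist marks.

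With the replicate number as a block, 1 member was called higher (Rab3b, log2 0.94, edgeR adjusted p = 0.0492) and 0 lower, beside 1.68% and 2.6% of all genes. Same-numbered libraries did not deviate together (correlations 0.0129, -0.0135 and 0.126), not every library correlated best with its own number, and the labels do not say that a number marks a shared litter, so the numbers were not taken to pair samples.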

Other observations

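Other genes of vesicle release are given here that were picked after their values were seen, and edgeR called none of them in the test reported. Of the voltage-gated calcium channels whose current triggers release, Cacna1a had a log2 fold change of -0.35, Cacna1c of -0.65 and Cacna1d of -0.27 (edgeR adjusted p = 0.170, 0.191 and 0.170). Rph3al, the Rab effector Noc2 of endocrine and exocrine granules, was at 59.9, 70.02 and 57.9 CPM in controls and at 35.4, 42.95 and 48.6 CPM in RARdn libraries, without overlap (log2 -0.57, edgeR adjusted p = 0.0546). Rph3al was called lower with DESeq2, without a filter on low counts, with robust dispersions, with the replicate block, with scaling to the pan-endocrine list and without RARdn 3, and not in the other 12 alternatives. Its relative Rph3a (rabphilin) was near 0, from 0.0890 to 0.116 CPM in controls and from 0.237 to 0.700 CPM in RARdn libraries (edgeR adjusted p = 0.0801). The 10 exocyst genes listed, which encode or resemble subunits of the complex that tethers vesicles, had log2 fold changes from -0.29 (Exoc7, edgeR adjusted p = 0.107) to 0.27 (Exoc3l, edgeR adjusted p = 0.439), 6 below 0 and 4 above.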
